A study of Mus musculus with 10 samples.

Results

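NMDA and kainate receptors are glutamate-gated cation channels built from 4 subunits each, and 9 genes that encode such subunits are described here: Grin1, Grin2a, Grin2b and Grin3a for NMDA receptors and Grik1 to Grik5 for kainate receptors. They were chosen by gene symbol, and all 9 were found among the 23589 genes of the deposited table of molecule counts. The counts came from DroNc-seq, a droplet method that reads the RNA of single nuclei and tags each captured molecule with a unique molecular identifier (UMI). Nuclei were isolated from frozen, microdissected hippocampus and cortex (prefrontal cortex, per the labels' protocol) of C57BL/6 mice, with no treatment or genotype contrast and no age given in the labels used here. Each region had 5 libraries, and those sharing a title number in a region were summed into 1 unit, which gave 4 units per region: unit 0 (libraries a and b) and units 1, 2 and 3. The series' design text mentions 4 brain tissue samples, but the labels do not tie title numbers to animals, so each p-value reflects unit-to-unit spread, part of which may be technical.

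An NMDA receptor needs the Grin1 product, the obligatory glycine-binding subunit, joined with glutamate-binding partners such as the Grin2a and Grin2b products, which set how fast the channel closes. In the forebrain, Grin2b dominates early in life and Grin2a joins it later. The Grin3a product binds glycine and lowers calcium entry. Kainate receptors can form from the Grik1, Grik2 and Grik3 products alone, whereas the Grik4 and Grik5 products are high-affinity subunits that need one of those partners. In the hippocampus, kainate receptors are best known at the mossy fibre synapses that dentate granule neurons make on CA3 pyramidal neurons.

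The 11624 nuclei comprised 5658 from hippocampus and 5966 from cortex. Units held 1443244 to 3834186 UMIs in hippocampus and 2375881 to 4407856 UMIs in cortex. Unit 0 stood apart from the others in both regions. Its median was 793 UMIs per nucleus in hippocampus, where units 1 to 3 had medians of 1034 to 1172, and 2505 UMIs per nucleus in cortex, where units 1 to 3 had medians of 1107 to 1306. Hippocampal unit 0 also held 153 of the 238 hippocampal nuclei with markers of cortical layers and 139 of the 183 thalamic or diencephalic neuron-like nuclei. No pair of libraries shared more than 3 of its cell barcodes. Nuclei were clustered without the ionotropic glutamate receptor genes and named from marker genes, which gave 2291 hippocampal and 3903 cortical excitatory neuron-like nuclei and 213 hippocampal and 578 cortical inhibitory neuron-like nuclei. Slc17a7 and Gad1 were among the markers that gave these names, so their levels describe the classes and do not test the names. Slc17a7, the vesicular glutamate transporter gene of forebrain excitatory neurons, stood at 396.5 CPM (counts per 1000000 UMIs) in hippocampal excitatory neuron-like nuclei. In cortical ones it stood at 293.5 CPM. Inhibitory neuron-like nuclei still held it at 105.4 CPM in hippocampus and 139.3 CPM in cortex. Gad1, a GABA synthesis gene, stood at 551.8 CPM in hippocampal and 549.5 CPM in cortical inhibitory neuron-like nuclei. In the excitatory ones it stood at 35.5 and 24.5 CPM.

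In the summed RNA of all nuclei, Grik3 was the 1 member of 9 that differed between the regions, and it was lower in hippocampus. Across all genes, 17.7% of the 12855 tested were called at an adjusted p under 0.05 (quasi-likelihood test of edgeR, adjusted by Benjamini-Hochberg), 9.19% higher and 8.53% lower, so 1 call among 9 members is near the background. Grik3, which encodes a low-affinity kainate subunit, had 29.7, 19.5, 23.6 and 21.7 CPM in hippocampal units 0, 1, 2 and 3, against 45.8, 46.3, 51.2 and 43.4 CPM in the cortical units of the same numbers. Every hippocampal unit lay below every cortical unit. The log2 fold change, hippocampus minus cortex, was -0.96 ± 0.15 (SE, adjusted p = 0.000708, edgeR), and it was called without any 1 of the 8 units as well, between -1.11 and -0.89. In such sums, fewer nuclei of an expressing type and less RNA per nucleus cannot be told apart.

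Grik4 and Grik2 came next, each higher in hippocampus without passing the threshold. Grik4 had 68.6, 47.1, 76.2 and 78.0 CPM in hippocampal units 0 to 3, against 57.9, 39.99, 46.6 and 42.6 CPM in cortical units 0 to 3, and hippocampal unit 1 overlapped the cortical range. Its log2 fold change was 0.51 ± 0.17 (adjusted p = 0.0526, edgeR). Grik2, the main subunit gene of kainate receptors on principal neurons, had 172, 264, 283 and 257 CPM in hippocampal units 0 to 3, against 159, 207, 172 and 168 CPM in cortical units 0 to 3, with hippocampal unit 0 inside the cortical range. Its log2 fold change was 0.45 ± 0.15 (adjusted p = 0.0597, edgeR). With units 1 to 3 alone, where 32.6% of all genes were called, Grik2 (0.55 ± 0.08, adjusted p = 7.13e-06), Grik4 (0.64 ± 0.15, adjusted p = 0.00193), Grik5 (0.32 ± 0.09, adjusted p = 0.0112) and Grin2b (0.23 ± 0.05, adjusted p = 0.000761) were called higher and Grik3 lower (edgeR). Without cortical unit 0, 4 members were called, beside 23.6% of all genes. In each of 3 further runs 2 members were called, beside 21.2% of all genes without hippocampal unit 0, 13.3% without cortical unit 1 and 1570 of 13030 genes without hippocampal unit 1.

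The NMDA receptor members did not pass the threshold in all nuclei. Grin1 averaged 440.4 ± 70.8 CPM over hippocampal and 490.3 ± 114 CPM over cortical units (SD, n = 4 units each), with a log2 fold change of -0.17 ± 0.15. Grin2b averaged 667 ± 53.4 CPM over hippocampal and 592 ± 99.4 CPM over cortical units, with a log2 fold change of 0.16 ± 0.11. Both were highest in unit 0 in each region, as the plot of values by unit shows. Grin3a, at 38.0 ± 5.76 CPM over hippocampal and 36.8 ± 5.08 CPM over cortical units, had a log2 fold change of 0.02 ± 0.15. Of the remaining kainate members, Grik1 gave 0.27 ± 0.14 (adjusted p = 0.212, edgeR) and Grik5, a high-affinity subunit gene, 0.04 ± 0.21 on the log2 scale.

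**Figure D1:**
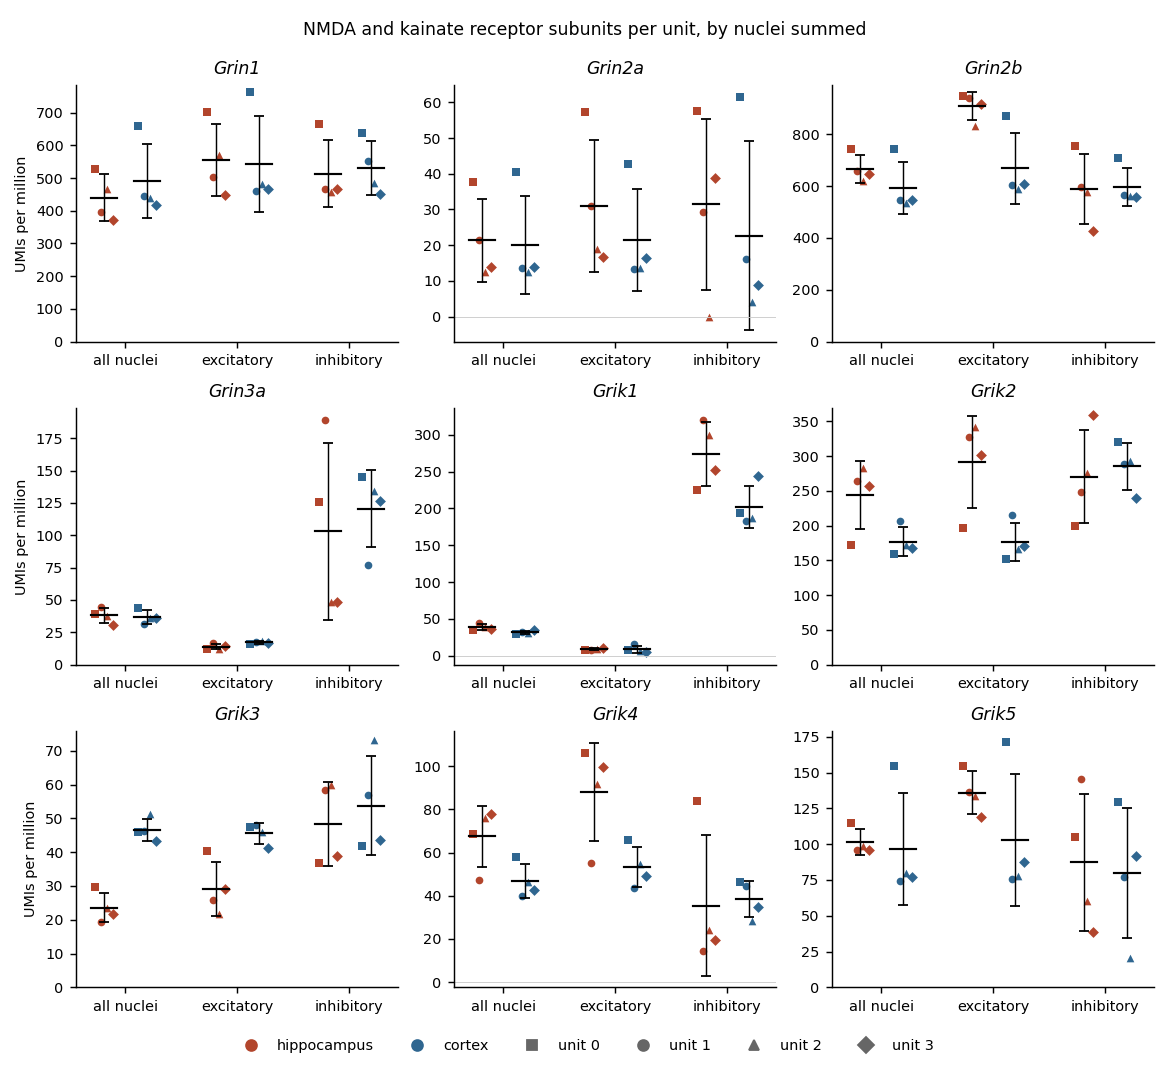
CPM (y axis) of each of the 9 subunit genes in the summed RNA of all nuclei, excitatory neuron-like nuclei and inhibitory neuron-like nuclei, with 1 marker per unit and the mean ± SD of the 4 units of a region. Grik3 of all nuclei lies at 19.5 to 29.7 CPM in hippocampus and 43.4 to 51.2 CPM in cortex, and unit 0 (squares) is the highest unit for Grin1 and Grin2a in all nuclei of both regions.

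Grin2a was highest in unit 0 of both regions. In all nuclei it had 37.8, 21.3, 12.5 and 13.9 CPM in hippocampal units 0 to 3, against 40.6, 13.5, 12.6 and 13.8 CPM in cortical units 0 to 3. The values of units 1 to 3 of both regions lay between 12.5 and 21.3 CPM. The log2 fold change was 0.09 ± 0.41 (adjusted p = 0.915, edgeR). It was -0.41 without hippocampal unit 0 and 0.78 without cortical unit 0, neither of them called. Unit 0 also differed in depth and in the makeup of its nuclei. In hippocampus, clusters left without a class name held 868 of its 2374 nuclei, beside 101 to 127 nuclei of each of units 1 to 3. In cortex they held 128 of its 1370 nuclei, beside 168 to 240 nuclei of each of units 1 to 3. These nuclei enter the sums of all nuclei. The part of depth or makeup in the Grin2a values was not tested.

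The ratio of Grin2a to Grin2b UMIs, whose products are alternative partners in the receptor, was computed in each unit. UMIs count captured molecules, so the ratio is compared between samples and is not a ratio of proteins. In all nuclei it was 0.0509, 0.0324, 0.0202 and 0.0215 in hippocampal units 0 to 3, against 0.0548, 0.0246, 0.0236 and 0.0251 in cortical units 0 to 3. The regions overlapped, and unit 0 was highest in both. The mean log2 ratio differed by -0.04 (hippocampus minus cortex, exact two-sided permutation p = 0.943 over 70 assignments). In excitatory neuron-like nuclei the ratio was 0.0603, 0.0328, 0.0227 and 0.0184 in hippocampal units 0 to 3, against 0.049, 0.0219, 0.0233 and 0.0268 in cortical units 0 to 3, a difference of 0.08 on the log2 scale (exact permutation p = 0.8286). In inhibitory neuron-like nuclei, hippocampal unit 2 held 0 Grin2a UMIs beside 48 Grin2b UMIs, so 1 UMI was added to both genes before the log, and the difference was 0.91 (exact permutation p = 0.314, with 17 hippocampal and 35 cortical Grin2a UMIs in all). Adjusted over the 3 ratios, each p was 0.943. The smallest p that 4 against 4 units allow is 0.0286.

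**Figure D2:**
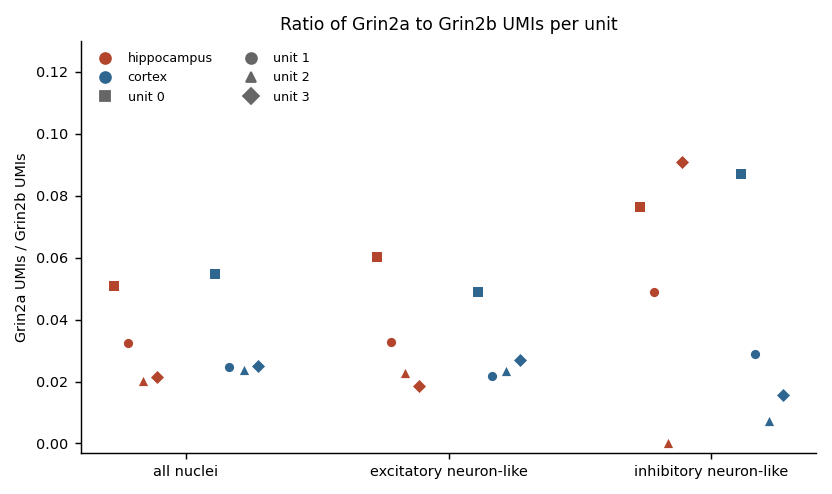
Ratio of Grin2a to Grin2b UMIs (y axis, linear scale) in each unit of hippocampus and cortex, for all, excitatory neuron-like and inhibitory neuron-like nuclei. In all nuclei unit 0 reaches 0.0509 in hippocampus and 0.0548 in cortex, above the other units of either region, and the regions overlap in each of the 3 sets.

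Within excitatory neuron-like nuclei, 3 members were higher in hippocampus: Grik2, Grik4 and Grin2b. Over all genes 16.5% of 10922 were called, of which 8.77% of those tested were higher and 7.73% lower, and 3 of the 9 members were called, all higher. The members' median log2 fold change was 0.40, beside -0.01 over all genes tested. Grik2 had 196, 328, 342 and 301 CPM in hippocampal units 0 to 3, against 152, 215, 166 and 170.4 CPM in cortical units 0 to 3. Hippocampal unit 0 lay within the cortical range and the other hippocampal units lay above it. The log2 fold change was 0.75 ± 0.17 (adjusted p = 0.00804, edgeR), and it was called without any 1 of the 8 units (0.67 to 0.93).

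Grik4 had 106, 55.3, 92.0 and 99.6 CPM in excitatory neuron-like nuclei of hippocampal units 0 to 3, against 65.8, 43.8, 54.9 and 49.0 CPM in those of cortical units 0 to 3. Hippocampal unit 1 alone fell inside the cortical range. Its log2 fold change was 0.75 ± 0.20 (adjusted p = 0.0169, edgeR), and its adjusted p was 0.0607 without hippocampal unit 3 and 0.0573 without cortical unit 1. Grin2b had 949, 940.4, 833 and 915 CPM in hippocampal units 0 to 3, against 871, 604, 588 and 609.8 CPM in cortical units 0 to 3. Cortical unit 0 overlapped the hippocampal range, and cortical units 1 to 3 lay well below it. Its log2 fold change was 0.47 ± 0.12 (adjusted p = 0.0189, edgeR). Its adjusted p was 0.0553 to 0.0693 without hippocampal unit 1, hippocampal unit 3 or cortical unit 1, 2 or 3, with log2 fold changes of 0.41 to 0.46.

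Grik3 again had lower values in hippocampus, at 40.3, 25.7, 21.6 and 29.1 CPM in excitatory neuron-like nuclei of units 0 to 3, against 47.4, 48.0, 46.0 and 41.2 CPM in those of cortical units 0 to 3. The groups did not overlap, but the log2 fold change of -0.57 ± 0.19 missed the threshold (adjusted p = 0.0548, edgeR). Without hippocampal unit 0 it was -0.79 ± 0.20 (adjusted p = 0.00751, edgeR). Grik5 averaged 136 ± 14.8 CPM over hippocampal and 103 ± 45.9 CPM over cortical units (SD, n = 4 units each), with a log2 fold change of 0.40 ± 0.23 that was not called. Cortical unit 0, at 171 CPM, set the cortical spread, and without it the log2 fold change was 0.80 ± 0.13 (adjusted p = 0.000355, edgeR). Grin2a likewise gave 0.55 ± 0.42 with all units and 1.24 ± 0.36 without cortical unit 0 (adjusted p = 0.0223, edgeR). Over all genes, 2299 of 11105 were called without cortical unit 0 and 2523 of 11068 without hippocampal unit 0. Grin1 (0.05 ± 0.17), Grin3a (-0.28 ± 0.23) and Grik1 (0.02 ± 0.39) were not called in excitatory neuron-like nuclei.

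**Figure D3:**
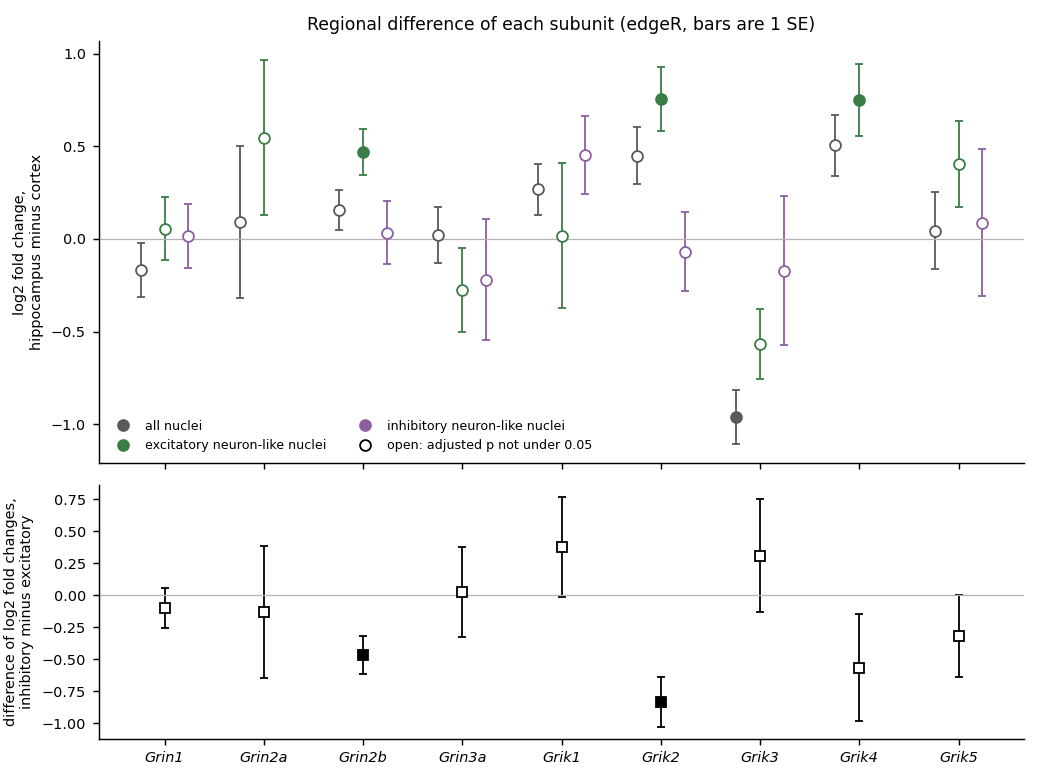
Log2 fold change of each subunit gene, hippocampus minus cortex, in all, excitatory neuron-like and inhibitory neuron-like nuclei (upper panel), and the difference between the fold changes of inhibitory and excitatory neuron-like nuclei (lower panel), with bars of 1 SE and filled symbols where the adjusted p was under 0.05. Grik2, Grik4 and Grin2b are filled in excitatory neuron-like nuclei (0.75, 0.75 and 0.47), and Grik2 and Grin2b are filled in the lower panel (-0.83 and -0.47).

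The excitatory class differs in makeup between the regions, so the comparison was also run on part of its nuclei. Dentate granule-like nuclei were 37.0%, 55.2%, 56.6% and 58.8% of the excitatory neuron-like nuclei of hippocampal units 0, 1, 2 and 3 and were 0 of those in cortex. With them left out, 5.42% of all genes were called, Grik2 had a log2 fold change of 0.19 ± 0.16 (adjusted p = 0.605, edgeR) and was not called, and Grik4 (0.99 ± 0.19, adjusted p = 0.00724) and Grin2b (0.53 ± 0.13, adjusted p = 0.029) were still called. Of the 468 nuclei then left in hippocampal unit 0, 153 had markers of cortical layers and 215 had no subtype name. In units 1 to 3 these were 24 to 32 and 34 to 48 of 215 to 236 nuclei. The part of this makeup in the values was not tested. A further comparison, chosen after seeing the data, kept only the dentate granule-, CA1- and CA3-like nuclei on the hippocampal side. No cortical nuclei were left out. The hippocampal nuclei left out included groups with more Grik3 than any group kept, as given below. In that comparison 27.8% of all genes were called, and Grik3 had a log2 fold change of -1.23 ± 0.22 (adjusted p = 0.000208), beside 0.90 ± 0.14 for Grik2, 0.91 ± 0.21 for Grik4 and 0.53 ± 0.12 for Grin2b (edgeR, all called). Its Grik3 value is not separate from the selection of nuclei on the hippocampal side only. With units 1 to 3 alone, where 33.1% of all genes were called, Grin2b, Grik2, Grik4 and Grik5 (0.73 ± 0.12) were called higher in hippocampus and Grik3 (-0.76 ± 0.21) lower.

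**Figure D4:**
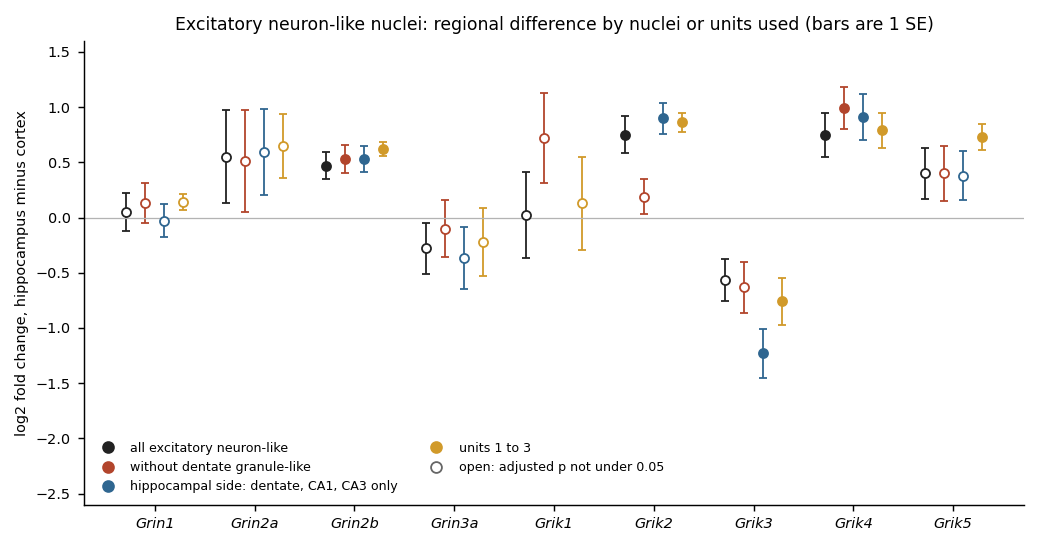
Log2 fold change of each subunit gene in excitatory neuron-like nuclei, hippocampus minus cortex, with all nuclei of the class, without dentate granule-like nuclei, with the hippocampal side limited to dentate granule-, CA1- and CA3-like nuclei, and with units 1 to 3 alone (bars are 1 SE, filled where the adjusted p was under 0.05). Grik2 lies at 0.19 without dentate granule-like nuclei and at 0.75 to 0.90 otherwise, and Grik1 has no value where it failed the filter on low counts.

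No member was called between the regions in inhibitory neuron-like nuclei, where units held 41 to 63 such nuclei in hippocampus and 136 to 153 in cortex. Grin2a and Grik4 failed the filter on low counts, so 7 members were tested. Of 5211 genes, 0.115% were called there by edgeR (0.0768% higher and 0.0384% lower), 6 genes in all, with 401 at an unadjusted p under 0.05 and 5 genes called by DESeq2. That count rested on unit 0: it was 120 of 4179 genes with units 1 to 3 alone, 89 of 6015 without hippocampal unit 0 and 41 of 5088 without cortical unit 0, and the members called were 0 in each. Grik1, the kainate subunit gene typical of interneurons, had 226, 321, 300.0 and 252 CPM in hippocampal units 0 to 3, against 193, 183, 187 and 244 CPM in cortical units 0 to 3. Cortical unit 3 lay inside the hippocampal range and the other cortical units below it, with a log2 fold change of 0.45 ± 0.21 (adjusted p = 0.588, edgeR). Grik2 averaged 270.4 ± 66.8 CPM over hippocampal and 285 ± 33.8 CPM over cortical units, with a log2 fold change of -0.07 ± 0.21. Grin2b averaged 589 ± 135 CPM over hippocampal and 597 ± 73.5 CPM over cortical units, with a log2 fold change of 0.03 ± 0.17. The other 4 tested members had log2 fold changes between -0.22 and 0.09, each smaller than its SE.

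The regional difference itself depended on the neuron class for Grik2 and Grin2b. In the test of the difference between classes (inhibitory minus excitatory), 2 of the 9 members were called, where 3.62% of 9796 genes were (1.31% higher and 2.32% lower). Both were called in the negative direction. Grik2 gave -0.83 ± 0.20 (adjusted p = 0.00195, edgeR) and Grin2b -0.47 ± 0.15 (adjusted p = 0.0481, edgeR). Grik2 lost the call without cortical unit 0 (-0.66 ± 0.22, adjusted p = 0.0854). Grin2b kept it without hippocampal unit 0 and lost it without any 1 of the other 7 units, with log2 differences from -0.52 to -0.33 and adjusted p from 0.0673 to 0.352 (edgeR). DESeq2 called neither, at adjusted p = 0.052 for Grik2 and 0.212 for Grin2b. The test fitted the 2 classes of a unit as separate sums, with the unit as a block. It was not run without dentate granule-like nuclei, which were part of the excitatory class in hippocampus only. Without them, the Grik2 difference in excitatory neuron-like nuclei was smaller and not called, as given above. The part of that makeup in the differences between classes was not tested.

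Levels were then described in marker-defined groups of nuclei. They carry no test and are given as the mean ± SD of the units with at least 20 nuclei of a group or, where fewer than 2 units reached that number, as the level over all nuclei of the group. Floors from counts cover counting error only. Groups other than neurons also carried neuronal RNA, so each level is to be read beside that of microglia-like nuclei, which held Slc17a7 at 164 CPM in hippocampus and 183 CPM in cortex.

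In microglia-like nuclei, Grin1 averaged 362 ± 32.9 CPM in hippocampus (n = 2 units) and 482 ± 174 CPM in cortex (n = 4 units), and Grin2b 576 ± 40.2 and 558 ± 116 CPM. Grik2 averaged 352 ± 203 and 202 ± 72.3 CPM there, Grik3 39.1 ± 18.4 and 58.6 ± 19.2 CPM, and Grik4 41.7 ± 14.8 and 54.0 ± 19.3 CPM, in hippocampus and in cortex. Grik1 stood at 91.3 ± 55.4 and 29.7 ± 7.96 CPM and Grin3a at 52.2 and 43.5 CPM. Among the named neuron groups, all units lay above every microglia-like unit of the region for Grin2b in CA1- and dentate granule-like nuclei, Grik4 in CA3-like nuclei, Grik3 in cortical layer 6- and hippocampal somatostatin interneuron-like nuclei, Grik1 in somatostatin interneuron-like nuclei of both regions and in the other named cortical interneuron groups, and Grin3a in cortical somatostatin interneuron- and hippocampal midbrain neuron-like nuclei. The same held for Grin1 and Grik5 in CA1-, CA3- and dentate granule-like nuclei. The other levels of named neuron groups given below overlapped the microglia-like units or lay under them, which includes Grik2 in every group. They are not told apart from that background. For hippocampal Grik2 that background rests on 2 microglia-like units with 20 and 19 UMIs. Grik2 of all dentate granule-like units, at 287 CPM or more, lay above every hippocampal astrocyte-, oligodendrocyte- and endothelial-like unit, at 245 CPM or less. It overlapped the oligodendrocyte precursor-like units, which reached 445 CPM.

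Among named hippocampal neuron groups, Grik2 stood highest in dentate granule-like nuclei, at 287, 541, 477 and 449 CPM in units 0 to 3. CA3-like nuclei had 229, 231, 305 and 218 CPM in the same units, and CA1-like nuclei 90.9, 144, 183 and 172 CPM. Unit 0 of the dentate granule-like nuclei overlapped the CA3-like range, whereas all 4 units lay above the CA1-like range. The unnamed inhibitory subcluster led by Pde11a, Ndnf and Kit was at a like level, 429.5 CPM from 23 UMIs in its 30 hippocampal nuclei, beside 429 CPM over all dentate granule-like nuclei. In cortex, Vip and Adarb2 class interneuron-like nuclei had 416 ± 142 CPM (SD, n = 4 units), followed by layer 5-like nuclei at 283 ± 45.1, somatostatin interneuron-like nuclei at 278 ± 69.9 and parvalbumin interneuron-like nuclei at 229 ± 30.1 CPM. The units of each of these neighbours overlapped those of the next.

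Among hippocampal principal neurons, Grik4 stood highest in CA3-like nuclei, the targets of the mossy fibres, at 338, 135, 256 and 230.1 CPM in hippocampal units 0 to 3. Dentate granule-like nuclei had 85.1, 37.5, 63.4 and 82.7 CPM in these units, and CA1-like nuclei 27.3, 22.2, 17.7 and 39.2 CPM. All 4 CA3-like values lay above all dentate granule- and CA1-like values. In cortex, layer 6-like nuclei averaged 107 ± 52.4 CPM, layer 2-4-like nuclei 60.8 ± 7.40 CPM and layer 5-like nuclei 34.3 ± 10.5 CPM (SD, n = 4 units each). The layer 6- and layer 2-4-like units overlapped, and every layer 5-like unit lay below every layer 2-4-like unit.

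Grik3 was near 0 in CA1- and CA3-like nuclei and, among named principal neuron groups, highest in layer 6-like nuclei. In layer 6-like nuclei of cortex it had 142, 177, 148 and 120.4 CPM in units 0 to 3. In CA1-like nuclei of hippocampus it had 2 UMIs among 663327 in all, and in CA3-like nuclei 2 UMIs among 650923. Dentate granule-like nuclei of hippocampus had 36.5, 34.4, 23.3 and 37.6 CPM in units 0 to 3. Layer 5-like nuclei of cortex averaged 45.9 ± 11.7 CPM and layer 2-4-like nuclei 14.9 ± 6.00 CPM. Among interneuron groups Grik3 was at 90.9 ± 9.25 CPM in somatostatin interneuron-like nuclei of hippocampus (n = 3 units) and 104 ± 28.8 CPM in those of cortex (n = 4 units), and at 16.2 ± 25.1 CPM in parvalbumin interneuron-like nuclei of cortex. The 55 layer 6-like nuclei found in hippocampal libraries had 117 CPM, from 13 UMIs. The unnamed excitatory subcluster led by Tshz2 and Col24a1 had 198 CPM from 17 UMIs in hippocampus and 155 CPM from 12 UMIs in cortex. A larger unnamed one, with 842 cortical nuclei and led by Rxfp1, Chrm2 and Oprk1, had 79.1, 32.0, 58.6 and 45.1 CPM in cortical units 0 to 3. Rxfp1 and Oprk1 are on the marker list of layer 6. No subtype was named for 1978 of the 3903 cortical excitatory neuron-like nuclei.

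The promoters of these 3 kainate subunit genes are shown because Grik2 and Grik4 were called higher, and Grik3 had lower values, in the same hippocampal nuclei. The bases come from RefSeq (GRCm38.p6) and are those of the 250 bases before the RefSeq start site that also lie before the gene's start in GENCODE vM21, 5′ to 3′ on the gene's strand. Capitals mark GGGCGG or its reverse complement CCGCCC, the core of the GC box bound by Sp1-type factors.

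Grik2, chr10:49788767-49789004, minus strand: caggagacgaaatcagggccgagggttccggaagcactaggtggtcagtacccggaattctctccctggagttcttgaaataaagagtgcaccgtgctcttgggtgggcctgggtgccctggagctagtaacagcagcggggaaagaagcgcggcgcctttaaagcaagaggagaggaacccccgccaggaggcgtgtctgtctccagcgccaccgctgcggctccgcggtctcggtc
Grik3, chr4:125490446-125490695, plus strand: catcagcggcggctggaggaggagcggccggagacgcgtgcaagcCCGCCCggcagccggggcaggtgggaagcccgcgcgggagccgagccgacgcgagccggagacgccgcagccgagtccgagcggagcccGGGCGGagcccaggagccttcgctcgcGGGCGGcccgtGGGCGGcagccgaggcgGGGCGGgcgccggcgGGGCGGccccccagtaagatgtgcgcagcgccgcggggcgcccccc
Grik4, chr9:42944494-42944621, minus strand: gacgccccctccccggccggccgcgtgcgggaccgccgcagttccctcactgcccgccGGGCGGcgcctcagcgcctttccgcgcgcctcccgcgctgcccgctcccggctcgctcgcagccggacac

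The Grik3 stretch held 5 GGGCGG matches and 1 on the other strand, the Grik4 stretch 1 match and the Grik2 stretch none. Of the 32851 RefSeq promoter windows of 250 bases, 32.7% held the motif on either strand, as did 3 of the 5 members with a promoter in the table. A match describes letters and not a bound site.

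Grik1 was high in interneurons and near 0 in most principal neurons. Inhibitory neuron-like nuclei averaged 275 ± 43.5 CPM in the hippocampal libraries and 202 ± 28.4 CPM in cortical ones (SD, n = 4 units each), while excitatory neuron-like nuclei averaged 8.61 ± 1.39 CPM in the hippocampal libraries and 8.49 ± 4.82 CPM in cortical ones. Dentate granule-like nuclei had 0 Grik1 UMIs among 1430024, which allows up to 2.10 CPM. Among interneuron groups, somatostatin interneuron-like nuclei averaged 278 ± 75.0 CPM in hippocampus (n = 3 units) and 223 ± 54.7 CPM in cortex (n = 4 units). In cortex, Vip and Adarb2 class interneuron-like nuclei were at 209 ± 86.1 and parvalbumin interneuron-like nuclei at 167 ± 56.6 CPM, all with overlapping units. The Pde11a, Ndnf and Kit subcluster had 691 CPM in its 30 hippocampal nuclei and 534 CPM in its 42 cortical nuclei. Within the excitatory class, the Tshz2 and Col24a1 subcluster had 117 CPM in 50 hippocampal nuclei and 193 CPM in 57 cortical nuclei, from 10 and 15 UMIs.

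**Figure D5:**
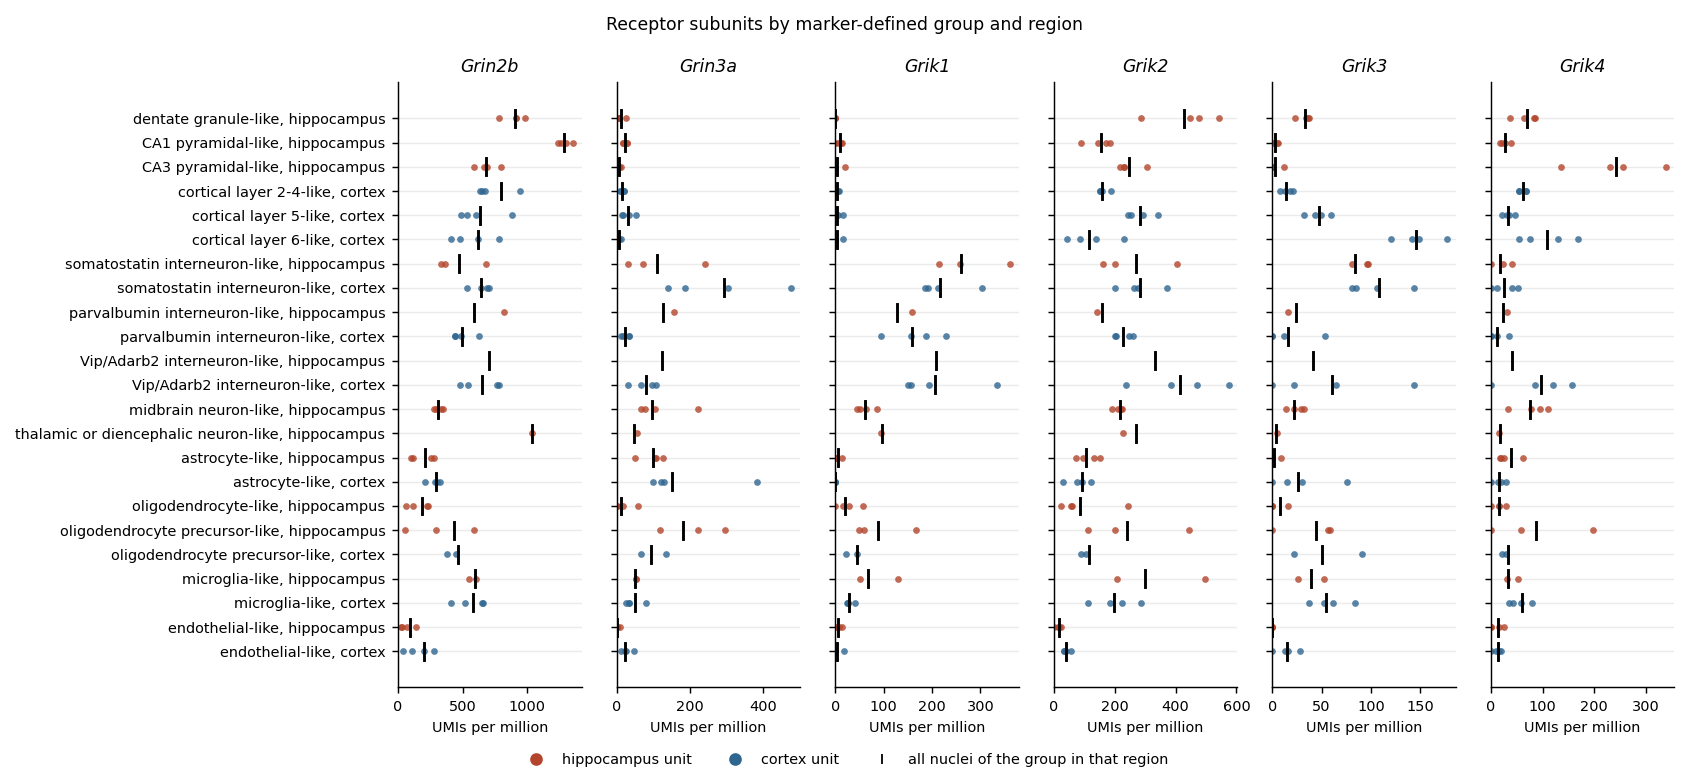
CPM (x axis) of 6 subunit genes in marker-defined groups of hippocampus and cortex, with 1 point per unit with at least 20 nuclei and a black line for all nuclei of the group in that region. Grik1 is at 0 in dentate granule-like nuclei and at 95.1 CPM or more in each interneuron-like unit shown, and the 4 CA3-like units for Grik4 lie between 135 and 338 CPM.

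Grin2b ordered the hippocampal principal neurons. CA1-like nuclei had 1299.5, 1354, 1259.8 and 1239.8 CPM in units 0 to 3, dentate granule-like nuclei 984, 910.0, 780.5 and 915 CPM and CA3-like nuclei 664, 686, 591 and 793 CPM. The CA1-like values did not overlap the dentate granule-like ones, whereas the dentate granule-like values overlapped the CA3-like ones. In cortex, layer 2-4-, layer 5- and layer 6-like nuclei averaged 722 ± 146, 627 ± 179 and 571 ± 166 CPM, without a gap between neighbours. Midbrain neuron-like nuclei found in hippocampal libraries had 314 ± 34.0 CPM (n = 4 units). Grin1 overlapped between neighbours throughout: hippocampal CA3-, dentate granule- and CA1-like nuclei averaged 533 ± 64.4, 527 ± 77.7 and 513 ± 144 CPM, and cortical layer 6-, 5- and 2-4-like nuclei 694 ± 209, 628 ± 245 and 522 ± 128 CPM.

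Grin2a was captured at few UMIs in every group, 496 in all nuclei, so its order over groups was not resolved. In hippocampus, CA1-, dentate granule- and CA3-like nuclei averaged 40.5 ± 35.2, 36.3 ± 19.8 and 24.8 ± 11.8 CPM, and in CA1- and dentate granule-like nuclei unit 0 was the highest unit. In midbrain neuron-like nuclei Grin2a had 3 UMIs beside 196 of Grin2b. Grik5 was spread over the principal neurons, at 142 ± 20.9, 129.7 ± 43.3 and 126 ± 36.8 CPM in dentate granule-, CA3- and CA1-like nuclei, with overlapping units.

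Grin3a was low in principal neurons and higher in several other groups. Excitatory neuron-like nuclei averaged 13.95 ± 2.14 CPM in the hippocampal libraries and 17.1 ± 1.13 CPM in cortical ones, whereas somatostatin interneuron-like nuclei averaged 115 ± 111 CPM in hippocampus (n = 3 units) and 277 ± 150.5 CPM in cortex (n = 4 units). Astrocyte-like nuclei had 106, 107, 126 and 49.2 CPM in hippocampal units 0 to 3 and 130.2, 383, 100.2 and 122 CPM in cortical units 0 to 3, each unit above every excitatory one. Oligodendrocyte precursor-like nuclei averaged 213 ± 90.3 CPM in hippocampus (n = 3 units) and 102 ± 48.7 CPM in cortex (n = 2 units).

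Grin3a in astrocyte-like nuclei, at 99.4 CPM in hippocampus and 151 CPM in cortex, stood beside Grin1 at 119 and 180.4 CPM, while in excitatory neuron-like nuclei Grin3a at 13.7 and 16.9 CPM stood beside Grin1 at 580.4 and 579.6 CPM. The 2 genes were not in the excitatory proportion in astrocyte-like nuclei. Nor were they in microglia-like nuclei, where Grin3a at 50.9 CPM in either region stood beside Grin1 at 334 (hippocampal) and 534 (cortical) CPM. The mismatch is thus not particular to astrocyte-like nuclei and does not by itself tell their Grin3a from background. The astrocyte-like units overlapped the microglia-like ones for Grin3a in hippocampus and lay above them in cortex.

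Over 27 profiles of a named group in a region, the members' levels went together unevenly. Pearson's r of log2(mean CPM + 1) was 0.907 for Grin1 with Grin2b, 0.754 for Grin1 with Grik2 and 0.564 for Grik3 with Grik4, and was -0.195 for Grik1 with Grik5. The profiles share libraries and depth, so these values describe and do not test. By the same measure over 13841 other genes, the profiles most like that of Grik3 were those of Syt6 (r = 0.8287, rho = 0.842), Tshz3 (r = 0.8164, rho = 0.718) and Ube2ql1 (r = 0.7922, rho = 0.743). Those most like Grin2b were Dbn1 (r = 0.9287, rho = 0.893), Dmtn (r = 0.9206, rho = 0.852) and A930011O12Rik (r = 0.9144, rho = 0.794), and those most like Grik2 were Gnl3 (r = 0.884, rho = 0.772), Strada (r = 0.8616, rho = 0.791) and Slitrk3 (r = 0.8482, rho = 0.73). For Grik4 they were Ccdc106 (r = 0.8897, rho = 0.753), Diras2 (r = 0.8618, rho = 0.728) and Rasd2 (r = 0.8572, rho = 0.761), and for Grik1 Hjurp (r = 0.7791, rho = 0.734), Cerk (r = 0.7618, rho = 0.795) and Ankrd55 (r = 0.7429, rho = 0.713).

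The other genes of the NMDA and kainate receptor pathway comprised 36 genes in 4 groups, and in all nuclei 6 of the 35 tested were higher and 3 lower in hippocampus, 25.7% called where 17.7% of all genes were. Their median log2 fold change was 0.01, beside -0.01 over all genes. Of the 7 genes for kainate receptor auxiliary and clustering proteins, 2 were higher and none lower. C1ql2, whose product is secreted by mossy fibres and gathers kainate receptors at their synapses, had 560 UMIs in hippocampus and 4 in cortex, and its relative C1ql3 had 163 ± 31.8 CPM in hippocampus and 102 ± 21.1 CPM in cortex (0.67 ± 0.18, adjusted p = 0.0186, edgeR). Of 20 scaffold and signalling genes, 1 was higher and 3 lower. Camk2b, a subunit of the calcium-dependent kinase that NMDA receptors activate, had a log2 fold change of 0.53 ± 0.08, while the scaffold genes Dlg1 (-0.85 ± 0.14), Dlgap2 (-0.68 ± 0.11) and Homer1 (-1.04 ± 0.25) were lower. Of 6 genes for co-agonist supply, 2 were higher: Phgdh, the first enzyme of serine synthesis (1.72 ± 0.30), and Slc7a10, a transporter of serine and glycine (0.97 ± 0.28). Of the 3 other NMDA subunit genes, 2 were tested and Grin2d was higher (0.76 ± 0.21). Slc7a10 and Grin2d are named after their values were seen. Astrocyte-like nuclei numbered 600 in hippocampus and 153 in cortex. Slc7a10 was among the leading genes of an astrocyte-like cluster with 113 hippocampal and 0 cortical nuclei. It was also among those of an unnamed cluster with 82 hippocampal and 266 cortical nuclei, beside Grin2c and Fgfr3. The part of these nuclei in the co-agonist values was not tested.

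In excitatory neuron-like nuclei, 6 of the 31 pathway genes tested were higher in hippocampus and 1 lower, 22.6% called where 16.5% of all genes were, with a median log2 fold change of 0.09. C1ql2 had 403 UMIs in hippocampus and 0 in cortex, at least 233-fold higher against a floor of 3 counts over the cortical units. It is also on the marker list of dentate granule-like nuclei, none of which came from cortex. Its difference here and in all nuclei is not separate from that makeup. C1ql3 (1.08 ± 0.20), Camk2b (0.91 ± 0.09) and Camk2a (0.48 ± 0.10) were higher as well, and Dlg1 was lower (-0.83 ± 0.18; adjusted p = 0.00514, edgeR). The remaining 2, named after their values were seen, were Dlg4 (0.49 ± 0.14), the scaffold known as PSD-95, and Nos1 (0.86 ± 0.24). Phgdh and Slc7a10 failed the filter on low counts there, and none of the other 4 co-agonist genes was called; none of the 18 pathway genes tested was called in inhibitory neuron-like nuclei. In the difference between classes, 3 of 32 pathway genes (9.4%, where 3.62% of all genes were called) passed the threshold, all lower: Camk2b (-1.26 ± 0.17), Camk2a (-0.69 ± 0.15) and Dlgap1 (-0.57 ± 0.17). Camk2a was also among the markers that named the excitatory class. Its calls in excitatory neuron-like nuclei and between classes are therefore not independent of the naming.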

How the data were processed

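The submitters' processing notes name STAR, Seurat and the mm10 mouse genome. How the authors filtered nuclei and whether counting used strand are not given in the sources used here. The authors deposited 1 table of UMI counts, raw whole numbers per gene and nucleus, with no normalization. A further 1689 columns whose names match no labelled sample were not used. The members and lists were chosen with earlier results of these data known, and every member was named.

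The pair of libraries with number 0 in a region was summed to 1 unit. Nuclei were scaled to 10000 UMIs, reduced to 2000 variable genes and 40 components without 18 ionotropic glutamate receptor genes, and clustered with Leiden at resolution 2.0 (scanpy 1.11.5), with sub-clustering at 1.0 inside each neuron class. Classes needed at least 3 supporting markers; clusters with mixed or mitochondrial leading genes stayed unnamed. Simulated doublets marked 772 nuclei (6.641%), which were kept except in an alternative. Counts summed per unit went into edgeR 4.0.16 over all genes (filterByExpr, TMM scaling, quasi-likelihood fit), hippocampus minus cortex, and genes were called at an adjusted p under 0.05. CPM are counts per 1000000 summed UMIs. On simulated counts, 78% of genes changed by 1 log2 unit were recovered in all nuclei, 67% in excitatory and 38% in inhibitory neuron-like nuclei. Of the genes called in these 3 simulations, 4.35%, 7.73% and 3.52% had not been changed. Ratios used an exact permutation test; the inhibitory one needed 1 UMI added to both genes, unlike the planned ratio. Pathway genes were named as up to 4 per direction with the smallest p, and like genes as the 3 with the highest r among genes with at least 20 CPM in a profile.

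Gene positions are from GENCODE vM21 (GRCm38, the assembly also called mm10). Grin1 lies on chromosome 2 (25291181 to 25319187), Grin2a on 16 (9567898 to 9995560), Grin2b on 6 (135713233 to 136173511), Grin3a on 4 (49661611 to 49845744), Grik1 on 16 (87895900 to 88290265), Grik2 on 10 (49094833 to 49788766), Grik3 on 4 (125490700 to 125714173), Grik4 on 9 (42518135 to 42944493) and Grik5 on 7 (25009849 to 25072346), all on the minus strand except Grik3. The overlapping genes with counts had few: at most 75 UMIs (Gm26543, inside Grik2), beside 3956 for Grik2, and 49 UMIs (Gm26653, antisense to Grin2b), beside 13103 for Grin2b. Alternatives covered size factors, DESeq2 1.42.0, the count filter, the replicate block, libraries, units, doublets, depth and clustering.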

Additional observations from a re-analysis of the deposited data

Results flagged for a closer look

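Unit 0 lay far from the other 3 units of its region in 13 of the 60 sets of 4 units checked (Dixon's test at 95%), and it was the highest unit in each. Chance alone marks about 1 in 20 such sets, and the sets share libraries. In all nuclei of hippocampus this held for Grik5, at 115 CPM in unit 0 with 95.8 to 98.4 CPM in the others. In all nuclei of cortex it held for Grin1 (660.0 CPM, others 419 to 445), Grin2a (40.6 CPM, others 12.6 to 13.8), Grin2b (741 CPM, others 533 to 548), Grik5 (155 CPM, others 74.5 to 80.1) and the log2 ratio of Grin2a to Grin2b (-4.19, others -5.41 to -5.31).

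In excitatory neuron-like nuclei of cortex it held for Grin1 (764 CPM, others 460.3 to 482), Grin2a (42.7 CPM, others 13.2 to 16.3), Grin2b (871 CPM, others 588 to 609.8) and Grik5 (171 CPM, others 75.8 to 87.3). In inhibitory neuron-like nuclei it held for hippocampal Grin1 (666 CPM, others 456 to 466), hippocampal Grik4 (83.9 CPM, others 14.6 to 24.002) and cortical Grin2b (708 CPM, others 557 to 564). Cortical unit 0 had 2505 UMIs per nucleus at the median and hippocampal unit 0 had 793, so its depth differed from that of the other units in opposite directions in the regions. The part of depth in these values was not tested.

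The regional difference depended on the neuron class by a direct test for Grik2 (-0.83, inhibitory minus excitatory) and Grin2b (-0.47). The losses of each call, and the limit set by dentate granule-like nuclei, are given above.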

How the results depend on the processing

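The count of called members in all nuclei, 1 of 9, was 3 with no filter on low counts, with DESeq2, with the replicate block and with only nuclei of at least 800 UMIs, 5 with units 1 to 3 and 2 with the 10 libraries as separate samples, where 1923 to 4128 genes were called. Without each unit in turn it was 1 to 4, where 1570 to 3094 genes were called. In excitatory neuron-like nuclei the count of 3 was 5 with the replicate block and 5 with units 1 to 3 (3492 of 10552 genes called). It was 1 to 5 without each unit in turn, where 1151 to 2523 genes were called. Without hippocampal unit 3 (1151 of 11170 genes called) or cortical unit 1 (1353 of 11091) it was 1. In inhibitory neuron-like nuclei it was 0 under every setting run. For the difference between classes the count of 2 was 1 with RLE size factors (350 of 9796 genes called, against 355) and 0 with DESeq2 (170 of 9796). It was 0 at Leiden resolution 1.0 (38 of 10360) and 1 at 4.0 (300 of 9697). Without each unit in turn it was 0 to 2, where 230 to 470 genes were called. Same-numbered units of the regions correlated in their deviations at 0.428, 0.097, 0.017 and 0.029 for numbers 0 to 3 in all nuclei, and not every unit correlated best with its own number, so the numbers were not taken as pairs. With the replicate block, 3086 genes were called in all nuclei, against 2278 without it, and 2613 against 1802 in excitatory neuron-like nuclei. The inhibitory ratio differed by 0.91 with the replicate block too (exact p = 0.25).

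Signs changed only for values that were not called in either setting. In all nuclei these were Grin3a (-0.01 without the filter and with 10 libraries, -0.04 without doublets, -0.02 at 800 UMIs) and Grik5 (-0.04 with 10 libraries). In excitatory neuron-like nuclei they were Grik1 (-0.02 without the filter and without doublets, -0.03 at resolutions 1.0 and 4.0), Grin1 (-0.03 with the hippocampal side limited to its own subtypes), and the ratio of Grin2a to Grin2b (-0.01 at 800 UMIs, -0.21 without dentate granule-like nuclei). In inhibitory neuron-like nuclei they were Grin1 (-0.05 without the filter, -0.03 with units 1 to 3), Grin2b (-0.04 and -0.03 under the same settings), Grik2 (0.21 with units 1 to 3) and Grik5 (-0.11 at resolution 1.0). In the difference between classes they were Grin2a (0.12 with DESeq2, 0.67 with units 1 to 3), Grin3a (-0.10 with units 1 to 3) and Grik3 (-1.08 at resolution 1.0). The causes were not tested.

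Without each unit in turn, the log2 fold changes ranged in all nuclei from -0.25 to 0.01 for Grin1, -0.41 to 0.78 for Grin2a, -0.06 to 0.12 for Grin3a and -0.06 to 0.39 for Grik5; in excitatory neuron-like nuclei from -0.07 to 0.28 for Grin1, -0.02 to 1.24 for Grin2a and -0.18 to 0.40 for Grik1; in inhibitory neuron-like nuclei from -0.13 to 0.13 for Grin1, -0.11 to 0.16 for Grin2b, -0.26 to 0.13 for Grik2, -0.32 to 0.03 for Grik3 and -0.20 to 0.51 for Grik5. In the difference between classes they ranged from -0.19 to 0.00 for Grin1, -0.38 to 0.61 for Grin2a and -0.31 to 0.27 for Grin3a. The ratio differences ranged from -0.31 to 0.25 in all, -0.26 to 0.33 in excitatory and 0.52 to 1.43 in inhibitory neuron-like nuclei. Of the other comparisons of a single member with an alternative, 483 kept direction and side of the threshold. A call was lost in 15 comparisons that left out a unit and in 7 under other settings. One was gained in 9 and 21 of them. The inhibitory ratio with nuclei weighted equally was not run because a unit held 0 Grin2a UMIs. Grin2a, at 496 UMIs in all, and the 213 hippocampal inhibitory neuron-like nuclei limit what can be resolved.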
